A study of Populus tremula x Populus alba with 24 samples.

Results

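In poplar roots treated with lipochitooligosaccharides (LCOs), 245 genes stood apart from the control at 24 h while lying close to it at 8 h. Of these, 102 were higher at 24 h (late-higher genes) and 143 were lower at 24 h (late-lower genes), out of 22510 genes averaging 2 TPM or more and 42950 genes in the gene table. They make up 0.453% and 0.635% of the 22510 genes. TPM is a relative transcript abundance, corrected for transcript length and scaled to a fixed library total. The genes were chosen from the measured values themselves. Each had a difference from control of at least 0.8 in size at 24 h, on the scale of log2(TPM + 1), and a difference between -0.35 and 0.35 at 8 h. In addition, all 3 libraries of 24 h had to lie beyond all control and all 8 h libraries on that side. Values in the control, 8 h and 24 h groups are therefore a description of the choice and carry no test, whereas the 5 groups collected earlier, from 15 min to 4 h, had no part in either difference and enter the rule only through the mean over all libraries.

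LCOs are chitin-like chains carrying a fatty acid that nitrogen-fixing rhizobia and mycorrhizal fungi release as signals to plant roots. In legumes they are perceived by receptor kinases with LysM domains, and a signalling pathway shared by both symbioses leads from there to calcium oscillations in the nucleus and to new transcription. Responses of roots are known to run from quick signalling events to slower changes in growth and development.

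The plants were hybrid poplar, Populus tremula x Populus alba, all of the single clone 717-1B4, so replicates differ in plants but not in genotype. Plantlets had grown for 10 days on plates holding little phosphate (7 μM) and nitrogen (0.5 mM), under 16 h of light and 8 h of darkness at 24 °C. From 3 h after dawn the roots were flooded for 1 h with 10 nM of purified LCOs from Rhizobium sp. IRBG74, and the control solution held 0.005% ethanol. Whether control roots were themselves flooded, and whether the clock started when flooding began or ended, is not clear from the labels, so the earliest times may lie within or after the flooding. Roots were taken as control at time 0 and then after LCO at 15 or 30 min, at 1 h or 2 h, at 4 h or 8 h, and at 24 h, each library being a pool of 4 plants. The 30 min and 2 h groups have 2 libraries each and the other 6 groups have 3 libraries each. One further library of 30 min and one of 2 h were not analysed here.

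The control was taken at time 0 only, so the effect of LCO at 24 h cannot be told apart from that of handling, age or time on the plate. The control and the 24 h roots were taken at about the same time of day, and the 8 h roots later in the day. The groups from 15 min to 4 h were taken at successive times of day, without untreated roots at those times. Among them the effect of LCO cannot be told apart from that of time of day or flooding. Roots are mixtures of cell types, so fewer cells of a type and less RNA per cell cannot be told apart. Each library summed to 936253 to 936552 TPM, and the read number behind the values is unknown. Replicate 2 of 15 min and replicate 3 of 30 min stood apart from the rest in earlier results of these data. Replicate 3 of 30 min listed 13313 genes at 0 TPM, outside the 9029 to 12911 of the other libraries. Replicate 2 of 15 min listed 12139, which lies inside that range. The files do not pair the identifiers with gene names, so functions, sequences and root cell type markers were not examined, and 4 genes are given by identifier.

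Late-higher genes had a median of 21.2 TPM at 24 h, against 11.5 TPM at 8 h and 10.2 TPM in control. Late-lower genes had a median of 8.77 TPM at 24 h, against 19.9 TPM at 8 h and 22.9 TPM in control. The median difference from control at 24 h was 0.92 for late-higher genes, with a range of 0.80 to 1.90, and -1.02 for late-lower genes, with a range of -3.32 to -0.80. Both sets are thus dominated by moderate differences, with a longer tail among the late-lower genes. In mean TPM, 57 late-higher and 104 late-lower genes differed at least 2-fold between 24 h and control, and 2 and 20 differed at least 4-fold. At 8 h the median difference was 0.19 for late-higher and -0.15 for late-lower genes. The 8 h mean lay on the same side of control as the 24 h mean for 83 late-higher and 101 late-lower genes, and beyond 0.2 on that side for 48 and 54. Both differences are taken from the same control libraries, which the rule used, so no displacement at 8 h is read from these counts. At 8 h 0 of the 245 genes passed the test (background 36.3% of genes in either direction). The rule held the 8 h difference small, so this too describes the choice. With libraries weighted by quality 11 of them passed, beside 14343 of all genes.

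The limit of 0.8 cuts through a continuous range. The late-higher genes nearest to it had 24 h differences of 0.80201 and 0.80556, and the nearest genes that met all other criteria had 0.79591 and 0.79512. Among late-lower genes the nearest inside were at -0.80195 and -0.80346, and the nearest outside were at -0.79881 and -0.79863. The number of genes also rested on single libraries. Without replicate 3 of 24 h the same rule chose 261 late-higher and 244 late-lower genes, and without replicate 2 of 8 h it chose 169 late-higher genes.

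Replicate 3 of 24 h was the library closest to control in both sets. For late-higher genes the 3 libraries of 24 h had median differences from control of 1.15, 1.05 and 0.75. For late-lower genes the medians were -1.22, -0.99 and -0.87. Replicate 3 was the 24 h library nearest to control for 78 of the 102 late-higher and 83 of the 143 late-lower genes. The gap between the 24 h libraries and the nearest control or 8 h library had a median of 0.30 (log2) in late-higher and 0.37 in late-lower genes, and it was under 0.1 for 15 and 16 genes. The median SD among 24 h libraries was 0.308 for late-higher and 0.279 for late-lower genes, against 0.196 for all genes of at least 2 TPM.

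**Figure D1:**
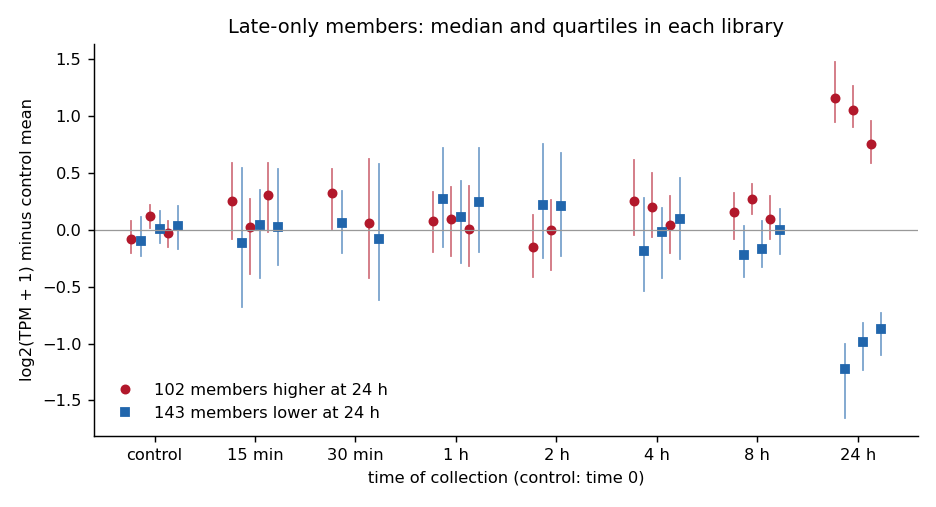
Median difference from control, in log2(TPM + 1), over the late-higher and the late-lower genes in each of the 22 libraries, by time of collection (points, with lines spanning the quartiles over genes). The 24 h libraries lie at 1.15, 1.05 and 0.75 for late-higher genes and at -1.22, -0.99 and -0.87 for late-lower genes, and the rule chose these 24 h values.

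Across the whole time course, 24 h was the extreme of the 8 group means for 93 of 102 late-higher and 129 of 143 late-lower genes. All 24 h libraries lay beyond all 19 other libraries for 46 late-higher and 70 late-lower genes. The remaining genes reached similar levels in at least 1 library at an earlier time. The rule had already set the 24 h libraries beyond those of control and 8 h, so these counts partly restate it. The share over all genes was not computed, so nothing is read from them about the 2 sets. In abundance, late-higher genes had a median of 12.6 TPM over all libraries (range 2.02 to 464), late-lower genes 23.9 TPM (range 2.06 to 1855), and all genes of at least 2 TPM 11 TPM. A mean of at least 100 TPM was reached by 7 late-higher and 20 late-lower genes. A mean under 5 TPM was found for 18 late-higher and 14 late-lower genes. A control mean under 2 TPM was found for 7 late-higher and 6 late-lower genes, and 2 late-higher genes passed the limit of 2 TPM only through the 24 h libraries. With a pseudocount of 0.1 TPM the rule kept 87 of the 102 late-higher and 133 of the 143 late-lower genes.

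**Figure D2:**
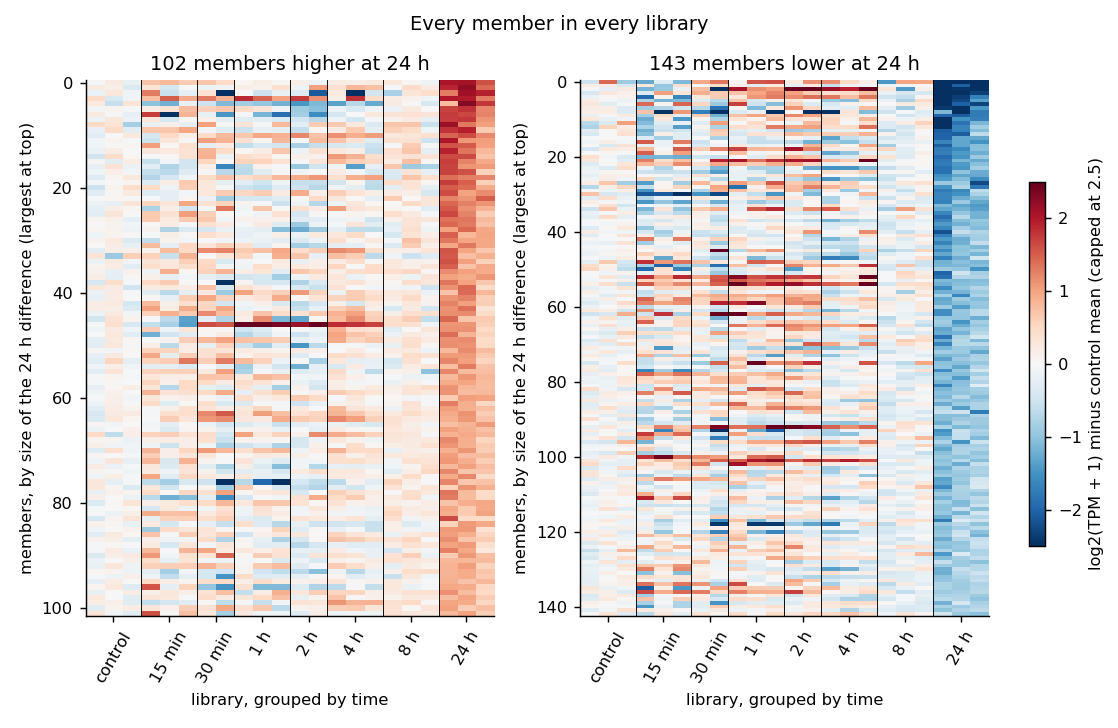
Difference from control in log2(TPM + 1) for each of the 102 late-higher and 143 late-lower genes (one row each, largest 24 h difference at the top) in each library, grouped by time, with the colour scale capped at its ends. The 24 h libraries were used to choose the genes and have 1 sign within each set; the libraries from 15 min to 4 h hold both signs.

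The late-higher gene with the largest difference among those of at least 5 TPM was Potri.002G185300. It had 150.6, 154.2 and 109.7 TPM at 24 h, against 43.1, 37.3 and 32.7 TPM at 8 h and 35.1, 42.2 and 31.3 TPM in control. All 24 h libraries were high and did not overlap with any other library, and the difference from control was 1.90. This gene also differed among the early groups, which enter the rule only through its mean level (limma F test, adjusted p = 0.0107, and 0.00382 to 0.0296 over 20 alternative settings). Its level was 59.9 ± 3.98 TPM at 15 min (SD, n = 3), 54.8 ± 5.97 TPM at 30 min (n = 2), 37.9 ± 2.10 TPM at 1 h (n = 3), 36.2 ± 5.0 TPM at 2 h (n = 2) and 41.2 ± 1.34 TPM at 4 h (n = 3). It was lower at 4 h than at 15 min, by a log2 difference of -0.53 (SE 0.15, limma adjusted p = 0.0203). Over 13 alternatives that adjusted p ran over 0.00776 to 0.0655, and it missed the threshold in 4 of them.

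The next late-higher gene, Potri.004G203900, had 28.4, 51.8 and 44.9 TPM at 24 h, against 5.87, 14.0 and 15.4 TPM at 8 h and 9.81, 13.8 and 10.2 TPM in control. Its 24 h libraries did not overlap with those of 8 h or control, but replicate 1 of 15 min, at 28.5 TPM, reached the lowest of them. Early libraries were widely spread, with 14.9 and 0.582 TPM at 30 min and 13.3, 1.05 and 7.88 TPM at 4 h. No difference among the early groups passed the test (limma F test, adjusted p = 0.446).

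Among late-lower genes the largest difference belonged to Potri.013G082600. It had 0.572, 2.06 and 0.408 TPM at 24 h, against 5.95, 36.5 and 35.8 TPM at 8 h and 12.2, 49.4 and 9.19 TPM in control. The 24 h libraries were low throughout, while 8 h and control varied several-fold within the group. The difference from control was -3.32 on the log2 scale. In the early groups the level was 9.73 ± 4.05 TPM at 15 min (SD, n = 3), 41.0 ± 7.60 TPM at 30 min (n = 2) and 43.8 ± 21.6 TPM at 1 h (n = 3). These did not differ past the threshold (limma F test, adjusted p = 0.120, and 0.0236 to 0.345 over 20 alternatives).

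The late-lower gene Potri.004G136600 showed the steadiest course of the 4. It had 1.62, 4.74 and 1.57 TPM at 24 h, against 20.6, 21.4 and 23.1 TPM at 8 h and 25.7, 26.0 and 17.1 TPM in control. Means at the 5 early times all lay between 19.1 and 27 TPM, and no difference among them passed the test (limma F test, adjusted p = 0.812, and 0.386 to 0.945 over 20 alternatives). The low level was thus seen at 24 h, with a difference from control of -2.80, and every other group mean was at least 19.1 TPM.

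**Figure D3:**
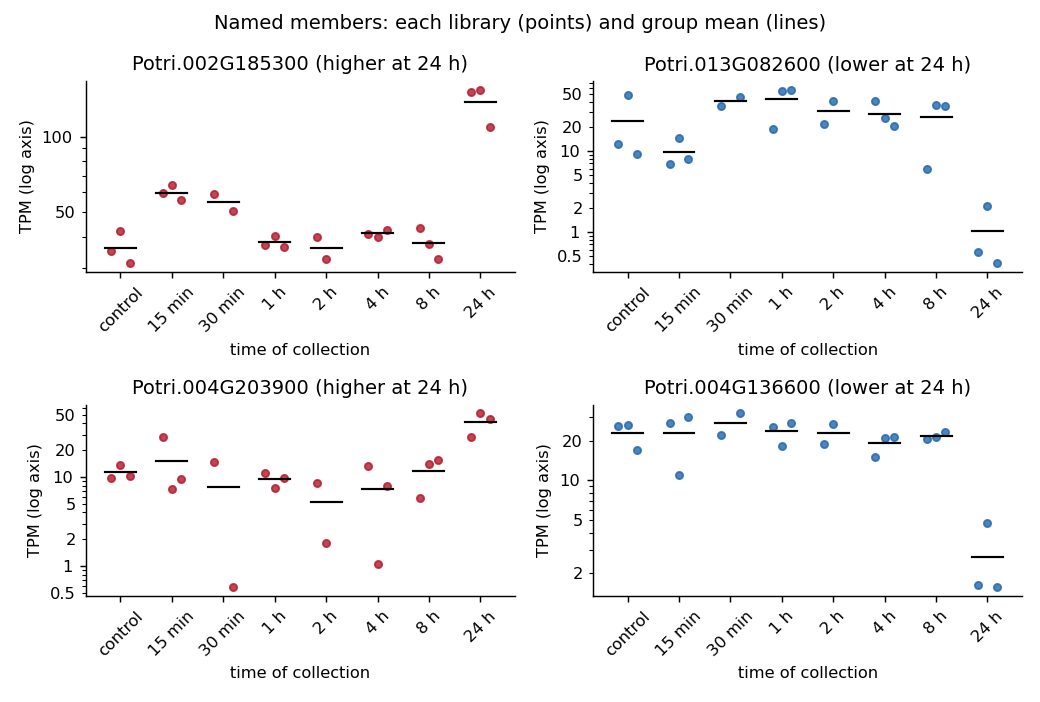
TPM (log axes) of 4 genes in each library (points) with group means (lines), by time of collection. Potri.002G185300 and Potri.004G203900 were high at 24 h, and Potri.013G082600 and Potri.004G136600 were low at 24 h; Potri.002G185300 also had 59.9 TPM on average at 15 min.

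Genes with the most similar course over the 22 libraries included genes outside the 245. For Potri.002G185300 the 3 highest Pearson correlations were 0.916, 0.897 and 0.886, and the first and last of these genes are late-higher genes. The other, at 0.897, differed from control by 0.47 at 8 h and so missed the 8 h limit. For Potri.013G082600 they were 0.905, 0.894 and 0.890, of which the first belongs to a late-lower gene. The points share their libraries and the 24 h group, so these values are descriptive.

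Differences in mean among the early groups use neither the control nor the 8 h or 24 h libraries. Their tests do use those libraries, through the 1 estimate of spread that all groups share. With the early groups fitted alone, the F test called 26 late-lower (18.2%) and 10 late-higher genes (9.8%), with a background of 8.73%. The differences cannot be told apart from effects of time of day or flooding. Among 15 min, 30 min, 1 h, 2 h and 4 h, 50 of 143 late-lower genes (35%) and 22 of 102 late-higher genes (21.6%) differed at an adjusted p under 0.05 (limma F test). Over all 25636 genes tested the share was 20.8%, and over the genes of at least 2 TPM it was 22%. The late-higher share is near this background, and the late-lower share lies above it, as it did in 20 of 20 alternative settings, whereas the late-higher share was above the background in 10 of 20. Late-lower genes also had a higher median abundance than all genes, 23.9 against 11 TPM. The part of abundance in the share was not tested. Without replicate 2 of 15 min the F test called 38 late-higher and 75 late-lower genes, with a background of 39.1%. Without replicate 1 of 30 min it called 36 late-higher genes, with a background of 34.6%. Without replicate 1 or replicate 3 of 15 min it called 12 and 13 late-higher genes, with backgrounds of 14.0% and 14.3%.

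Of the 50 late-lower genes called by the F test, 19 had their highest early mean at 15 min, 15 at 2 h and 9 at 1 h, and 23 had their lowest at 4 h. Of the 22 late-higher genes called, 7 were highest at 15 min and 7 at 30 min, and 11 were lowest at 2 h. The late-lower set thus held more than 1 early course. The highest and lowest early group means of a gene lay a median of 0.97 apart (log2) in late-lower and 0.74 apart in late-higher genes, against 0.69 in all genes of at least 2 TPM.

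In the step to 4 h from 1 h, calls among late-lower genes were mostly downward. At 4 h 20 of the 143 (14.0%) were called lower than at 1 h and 1 (0.699%) higher, against backgrounds of 5.96% lower and 5.48% higher. Their median difference, 4 h minus 1 h, was -0.35, and 101 of 143 were below 0, beside a median of 0.06 over all genes. Among late-higher genes 6 (5.88%) were called higher and 2 (1.96%) lower, with a median difference of 0.12. The 20 late-lower genes had a median of 24.6 TPM in control, 36.5 TPM at 1 h, 16.3 TPM at 4 h, 24.8 TPM at 8 h and 12.2 TPM at 24 h. These 20 were picked by the test, so their levels at 1 h and 4 h describe that choice. Calls in the 245 genes numbered 29 in both directions, and 19, 18, 10, 13 and 18 without replicate 1 or 2 of 1 h, or replicate 1, 2 or 3 of 4 h. Of the 21 calls in late-lower genes, 13 were made without replicate 1 of 1 h, and 7 and 9 without replicate 1 or 2 of 4 h. The 8 calls in late-higher genes became 3 or 4 without replicate 2 or 3 of 1 h or any 1 replicate of 4 h. The share of late-lower genes called in either direction, 14.7% in the main fit, was above the background in 10 of 13 alternatives. Some margins were small, with 9.09% against 8.73% when the compared groups were fitted alone and 6.29% against 5.92% without replicate 2 of 4 h. The share was below the background with library weights (30.8% against 31.6%). It was also below without replicate 1 of 1 h (9.09% against 10.9%) or replicate 1 of 4 h (4.9% against 7.72%). The late-higher share, 7.84% against a background of 11.4%, was above it in 0 of 13. Without 1 replicate of 1 h or 4 h the background was 5.92% to 10.9%.

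At 4 h against 15 min, late-lower genes were called in both directions. At 4 h 22 (15.4%) were called higher than at 15 min and 26 (18.2%) lower, against backgrounds of 10.9% higher and 10.0% lower. The 22 had a median difference from control of -0.71 at 15 min and 0.47 at 4 h. The 26 had 0.88 at 15 min and -0.53 at 4 h, and 11 of them were also among the 20 called lower at 4 h than at 1 h. At 8 h each group of genes had a median of -0.17, and at 24 h the medians were -1.02 and -0.94. The rule had set these 8 h and 24 h values beforehand, so no course after 4 h is read from them. Both groups of genes were picked by the test, so their levels at 15 min and 4 h describe that choice. Among late-higher genes 8 (7.84%) were called higher and 5 (4.90%) lower. These 13 calls (12.7%, background 21% in either direction) became 25 (24.5%, background 31.4%) without replicate 2 of 15 min. The late-higher share was above the background in 0 of 13 alternatives. The share of late-lower genes called in either direction was above the background in 13 of 13 alternatives.

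**Figure D4:**
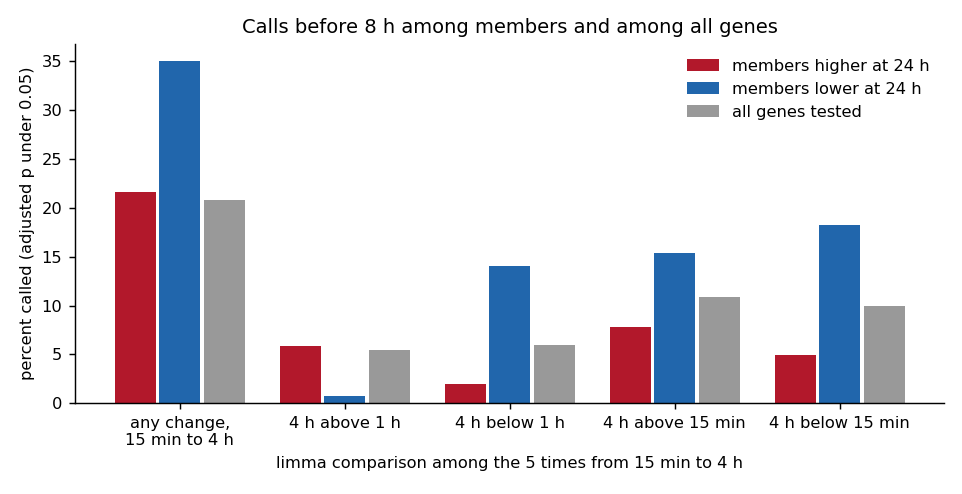
Share of late-higher and late-lower genes called in tests among the early groups, beside the share of all genes tested. Bars start at 0; the late-lower share stands at 35% in the F test among 5 early times, against 20.8% of all genes.

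Differences from control at the early times share the control libraries that chose the genes, so nothing is read from them about the genes beyond their values. At 15 min, 30 min, 1 h, 2 h and 4 h the median difference of late-higher genes was 0.20, 0.19, 0.08, -0.10 and 0.18, and that of late-lower genes was -0.06, 0.01, 0.15, 0.18 and -0.04. Over all genes the medians ran from -0.03 to 0.05. Both sets had medians within 0.2 of control at each early time. Of the late-higher genes 16 (15.7%) were 0.8 or more above control at 1 or more early times and 13 (12.7%) were 0.8 or more below, with 1 gene in both counts. Of the late-lower genes 51 (35.7%) were above and 33 (23.1%) below by as much, with 10 genes in both counts. Over all genes of at least 2 TPM the shares were 14.6% above and 16.3% below. Staying within 0.35 of control at all 5 early times was seen in 9 late-higher (8.82%) and 9 late-lower genes (6.29%), against 19.4% of genes of at least 2 TPM.

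Calls against control rest on the same control libraries, and are listed as a description from which nothing is read. At 15 min 12 late-lower genes were called higher than control and 5 lower, and 3 late-higher genes were called higher and 2 lower; backgrounds were 4.33% higher and 3.73% lower. For 30 min the calls were 2 higher and 2 lower among late-lower and 7 higher and 0 lower among late-higher genes, with backgrounds of 0.839% and 0.940%. For 1 h they were 10 higher and 0 lower among late-lower and 4 higher and 0 lower among late-higher genes, with backgrounds of 1.61% and 1.27%. For 2 h they were 15 higher and 1 lower among late-lower and 4 higher and 2 lower among late-higher genes, with backgrounds of 1.98% and 2.21%. For 4 h they were 5 higher and 9 lower among late-lower and 8 higher and 0 lower among late-higher genes, with backgrounds of 4.61% and 4.95%. These small counts moved by more than 1.5 times with single libraries. Calls in the 245 genes at 15 min numbered 22, and 57 without replicate 2 of 15 min, 11 and 12 without its replicates 1 and 3, and 8 without replicate 1 of control. At 30 min they numbered 11, and 41 and 1 without replicates 1 and 3 of 30 min, and 3 and 4 without replicates 1 and 3 of control. At 1 h they numbered 14, and 7 without replicate 2 or 3 of 1 h or replicate 1 of control, and 8 without replicate 3 of control. At 2 h they numbered 22, and 3 and 6 without replicates 1 and 2 of 2 h, and 6, 11 and 10 without replicates 1, 2 and 3 of control. At 4 h they numbered 22, and 12 and 13 without replicates 1 and 2 of 4 h, and 14 without replicate 1 of control.

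For the contrasts that the rule used, calls only describe the choice. At 24 h 93 of 102 late-higher genes (91.2%) passed the test against control, with a background of 20.1% of genes higher, and 123 of 143 late-lower genes (86.0%) passed, with a background of 15.8% lower. Between 24 h and 8 h 38 late-higher (37.3%) and 62 late-lower genes (43.4%) passed, with backgrounds of 1.23% higher and 1.42% lower. That last count, 100 in all, was 56, 59 and 31 without replicate 1, 2 or 3 of 8 h, and 27 and 50 without replicate 1 or 2 of 24 h. Over all genes the 679 calls became 372, 377 and 245, and 219 and 351, in the same order.

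By the same limits with the times exchanged, 113 genes were higher and 153 lower at 8 h and back within 0.35 of control at 24 h. Genes past 0.8 at both 24 h and 8 h, with all libraries of both times beyond control, numbered 1945 higher and 2172 lower. In the F test among early times, 41.6% and 23.5% of the first and 29.5% and 44.2% of the second were called, higher and lower genes in turn. The 35% of late-lower genes lies among these values, so a share above the background was not particular to them.

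The transcript table, from the same libraries, shows which transcripts carry these levels. Only 1 transcript was listed for 79 late-higher and 117 late-lower genes. At least 2 transcripts of 1 TPM or more were present for 11 and 18 genes, and the most abundant one was the same at 24 h and in control for 6 of 11 and 15 of 18. Among the early times 15 of 115 transcripts of late-higher genes (13.0%) and 40 of 166 of late-lower genes (24.1%) were called (limma F test), against 13.4% of all 29885 transcripts tested. Of the 11 and 18 genes, 7 late-higher and 7 late-lower genes held a transcript that differed from control by 0.8 or more at 8 h, which is 63.6% and 38.9%. Over all 1561 genes of at least 2 TPM that lay within 0.35 of control at 8 h and had as many transcripts the share was 50.5%, so such genes are common and not particular to these sets.

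Potri.002G185300 is such a gene. Its transcript 1 had 106.9, 101.1 and 65.8 TPM at 24 h, against 23.1, 14.6 and 14.6 TPM at 8 h and 15.5, 8.22 and 4.48 TPM in control. Its transcript 3 had 2.52, 18.1 and 17.9 TPM at 24 h, against 10.7, 14.5 and 10.6 TPM at 8 h and 19.7, 33.7 and 27.2 TPM in control. Transcript 4 had 22.5 ± 8.90 TPM at 24 h, against 4.72 ± 0.343 TPM at 8 h and 0.803 ± 0.775 TPM in control (SD, n = 3 each). Transcript 3 was thus the most abundant of the 3 in each control library and transcript 1 in each 24 h library. At 8 h, with the gene near its control level, transcript 4 differed from control by 1.77, transcript 1 by 0.94 and transcript 3 by -1.09 (log2). For transcript 1 the 8 h and control libraries overlapped. Reads shared by transcripts are divided by estimation, and the error of that step is unknown. Replicates 1 and 2 of 15 min differed widely, with 49.4 and 0 TPM for transcript 1 and 0.00149 and 63.3 TPM for transcript 3. None of the 3 transcripts passed the test among the early times (limma F test, adjusted p = 0.538, 0.358 and 0.543 for transcripts 1, 3 and 4). With so wide a spread at 15 min, a difference could have been missed.

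**Figure D5:**
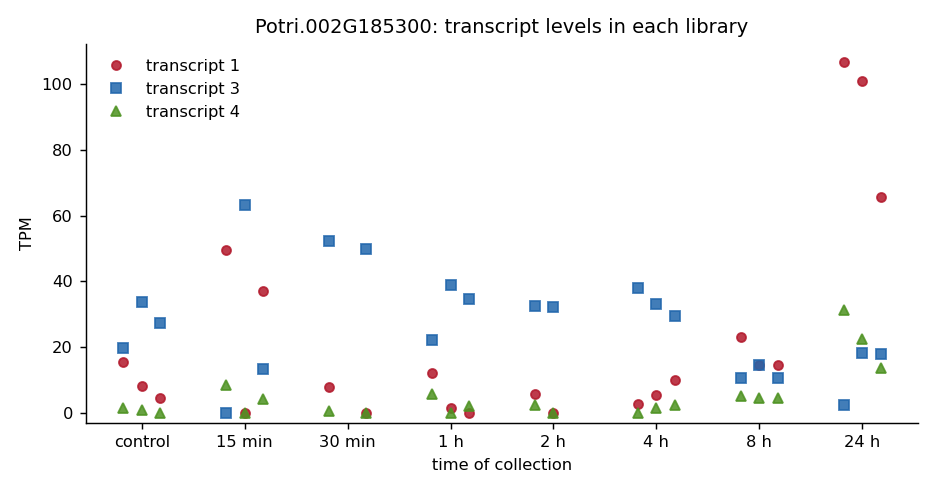
TPM of transcripts 1, 3 and 4 of Potri.002G185300 in each library, by time of collection. Transcript 1 lies at 65.8 to 106.9 TPM at 24 h, above transcript 3 in each 24 h library, and below transcript 3 in each control library.

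By identifier, the genes were scattered. Late-higher genes carried 20 of the 20 identifier prefixes present among these genes and late-lower genes 19, and adjacent identifiers were both late-higher in 1 pair and both late-lower in 0 pairs. Genes with the next lower or higher identifier had median 24 h differences of 0.19 (120 genes beside late-higher genes) and -0.05 (171 genes beside late-lower genes). The median over all genes of at least 2 TPM was 0.05, and the departures of these neighbours from it were not tested.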

How the data were processed

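The deposited gene and transcript tables hold ln values, the natural log of (TPM + 1), quantile-normalized by the authors, as the table names and values show. The submitters' processing notes name kallisto and sleuth and give no versions, and the build of the genome was not given in the sources used here. Quantile normalization removes any change in total output. Because the values are TPM, the read depth per library is unknown, and no counting interval can be given.

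From these tables, TPM was recovered with base e and put on the scale of log2(TPM + 1), with a pseudocount of 1 that understates fold changes of low genes. limma 3.58.1 under R 4.3.3 fitted 1 mean per group to all 22 libraries (14 residual degrees of freedom, empirical Bayes with trend) over the 25636 genes averaging 1 TPM or more. Tests were two-sided, adjusted by Benjamini-Hochberg over all genes tested and called at an adjusted p under 0.05. The design had assumed TPM rather than its log. Transcripts were fitted separately in the same way. The fit was checked on simulated data. The labels call the pools biological replicates. Numbers shared between groups did not pair the libraries: 0 of 15 pairs of groups had every same-number correlation above 0.1.

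Named genes are, in each direction, the 2 with the largest 24 h difference among those with a mean of at least 5 TPM. The genes, limits and lists were chosen with earlier results of these data known. The 31 gene lists, the cell type markers and the promoter motifs needed an annotation and were not used here. Alternatives changed the pseudocount, the filter, the libraries and their weights, the replicate block and the limits of the rule. Figures were made in Python 3.11.15 with matplotlib 3.10.9.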

Additional observations from a re-analysis of the deposited data

How the results depend on the processing

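Signs were followed under the alternatives only for the 4 named genes, at 4 h against 1 h and 4 h against 15 min. Of these differences, that of Potri.002G185300 at 4 h against 15 min passed its test in the main fit. It kept its sign, at -0.57 to -0.47 over 13 alternatives. Among those that did not pass, that of Potri.004G203900 at 4 h against 1 h, -0.70, was 0.12 without replicate 2 of 4 h. That of Potri.004G136600 at 4 h against 15 min, -0.15, was 0.03, 0.11 and 0.01 without replicate 1 or 3 of 15 min or replicate 1 of 4 h. Looser or stricter limits set how many genes were chosen. A 24 h difference of at least 0.6 gave 266 late-higher and 281 late-lower genes, and of at least 1 gave 40 and 76. An 8 h limit of 0.2 gave 49 and 75, and of 0.5 gave 178 and 241. Leaving out 1 library gave 92 to 261 late-higher and 128 to 244 late-lower genes.

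Weighting libraries by their quality raised most counts of calls in the 245 genes, to 207 for 24 h against 8 h, 11 for 8 h against control, 61 for 4 h against 1 h, 111 for 4 h against 15 min and 140 for the F test among early times. Calls over all genes rose as well, to 2725 for 24 h against 8 h and 14343 for 8 h against control. The share of all genes was then 31.6% for 4 h against 1 h, beside 16.7% of late-higher and 30.8% of late-lower genes. It was 44.7% for 4 h against 15 min, beside 32.4% and 54.5%, and 54.5% for the F test, beside 47.1% and 64.3%. Against control, 15 min then had 91 calls, 30 min had 0, 1 h had 62, 2 h had 37 and 4 h had 58. Over all genes these were 9491, 78, 4988, 2113 and 6376 calls. Leaving out replicate 2 of 15 min and replicate 3 of 30 min gave 94 for 4 h against 15 min, 110 for the F test and, against control, 64 calls for 15 min, 1 for 30 min, 26 for 1 h and 37 for 2 h. Fitting the compared groups alone gave 16 for 4 h against 1 h, 36 for the F test and, against control, 4 calls for 15 min, 0 for 30 min, 5 for 1 h and 34 for 4 h. Of all genes, this called 8.73% for 4 h against 1 h and 8.73% for the F test. Against control it called 264, 38, 260 and 3235 of all genes, in the same order. Testing all genes without a filter gave 19 for 4 h against 1 h, with a background of 6.94%. In each comparison listed for these settings, calls over all genes moved in the same direction as those in the 245 genes. This did not hold for every other comparison. For 24 h against 8 h, fitting the compared groups alone gave 90 instead of 100 calls, and 718 instead of 679 over all genes. For 24 h against control, testing without a filter gave 201 instead of 216 calls, and 9234 instead of 9189 over all genes. The cause of these moves was not tested.

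Leaving out 1 library gave 166 to 203 calls for 24 h against control, 0 to 1 for 8 h against control, 27 to 110 for 24 h against 8 h, 10 to 20 for 4 h against 1 h, 42 to 87 for 4 h against 15 min and 48 to 113 for the F test. Calls against control then ran over 8 to 57 for 15 min, 1 to 41 for 30 min, 7 to 19 for 1 h, 3 to 11 for 2 h and 12 to 20 for 4 h. A lone library left in a group was assumed to vary like the other groups. Over all genes, leaving out 1 library gave 6864 to 7986 calls for 24 h against control and 6690 to 8291 for 8 h against control. For 24 h against 8 h it gave 219 to 726. The share of all genes called ran over 5.92% to 10.9% for 4 h against 1 h and 12.9% to 31.4% for 4 h against 15 min. With the replicate number as a block, which the labels do not tie to a shared batch, calls were 220, 0 and 111 for the contrasts among 24 h, 8 h and control, 31 and 70 for 4 h against 1 h and 15 min, and 86 for the F test. Of all genes, the block called 12% and 21.8% for 4 h against 1 h and 15 min, and 23.1% for the F test. No read depth is known, so the limit that depth sets on genes of a few TPM cannot be given.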
